A study of Mus musculus with 4 samples.

Results

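Genes that mark segments of the nephron were followed in ureters kept in culture. The set held 9 genes of 29924 gene names on the array, chosen by the tissue in which they are known and by their difference between *Pparg-cKO* and control ureters cultured with DMSO. Mature nephrons filter plasma in the glomerulus, recover most of the filtrate in the proximal tubule, dilute it in the thick ascending limb of Henle's loop and pass it through the distal tubule and collecting duct to the ureter. Podocytes wrap the glomerular capillaries with foot processes joined by slit diaphragms, proximal tubule cells carry a brush border rich in peptidases and endocytic receptors, and thick limb cells take up sodium, potassium and chloride from the urine side. The ureter that drains the kidney is a muscular tube lined by urothelium, a barrier epithelium with its own programme of uroplakins and keratins.

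The 9 genes were *Podxl* and *Nphs1* for podocytes, *Tmem27*, *Dpp4*, *Fbp1* and *Lrp2* for the proximal tubule, and *Umod*, *Slc12a1* and *Kcnj1* for the thick ascending limb. *Podxl* codes for podocalyxin, a sialomucin that also coats endothelial and mesothelial cells, and *Nphs1* for nephrin of the slit diaphragm. *Tmem27* (named *Cltrn* in the current annotation) codes for collectrin, a partner of brush border amino acid transporters, *Dpp4* for a surface peptidase, *Fbp1* for a key enzyme of gluconeogenesis and *Lrp2* for the endocytic receptor megalin. *Umod* codes for uromodulin, *Slc12a1* for the furosemide-sensitive cotransporter and *Kcnj1* for the potassium channel ROMK.

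Newborn (P0) NMRI mice gave the ureters, which were kept for 8 days in medium that held either 2 µM purmorphamine or its solvent DMSO. Purmorphamine is an agonist of Smoothened that activates sonic hedgehog signaling. *Pparg-cKO* ureters carried Pax2-cre/+ and Pparg (fl/fl), an allele from which cre removes exons 2 and 3. The cre line acts in the collecting ducts of the kidney, the epithelium of the ureter and the nephric duct. Control ureters were labelled Pparg (fl/?) and came from littermates without cre. Each of the 4 groups held 1 male and 1 female pool of ureters, which gave 8 pools on 4 arrays with 2 colors. Both treatments of a genotype and sex shared an array. Between the male and the female arrays the dyes were swapped, so sex and dye orientation cannot be told apart. The *Pparg* probe, which starts at base 1562 of its transcript and lies outside the deleted exons, cannot check the deletion. It gave log2 levels of 15.55, 15.58, 15.95 and 16.11 in the *Pparg-cKO* pools and of 14.79, 15.32, 15.10 and 15.19 in the control pools, each in the order of male and female DMSO, then male and female purmorphamine. The number of ureters in a pool is not given in the sources used here, and the spread between 2 pools of a group includes sex and dye. *Xist*, the RNA that coats the inactive X chromosome, matched the sex labels, with log2 levels from 12.19 to 13.21 in the 4 female pools and from 5.99 to 6.21 in the 4 male pools. Of 157716 spots on an array, 66.3% to 70.5% were well above background in a pool, and no spot was saturated.

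Levels are log2 intensities after background correction and normalization, and levels of different genes are not compared, since probes differ in brightness. For scale, probes not above background had a median log2 level between 6.08 and 6.12 in the 8 pools. The array held 13 probes for the 9 genes, and the brightest tested probe stood for its gene. The *Podxl* probe lay at chr6:31470405-31470464 on the minus strand of mm9, that of *Nphs1* at chr7:31273569-31273628 on the plus strand, that of *Tmem27* at chrX:160556732-160556791 on the plus strand, and that of *Umod* at chr7:126606529-126606588 on the minus strand. A second *Podxl* probe and a pair of further *Lrp2* probes, all designed to Ensembl transcripts, were not well above background in any of the 8 pools. A second *Tmem27* probe, upstream in the gene at chrX:160546391-160546450, gave log2 levels of 9.28 and 9.20 in the *Pparg-cKO* DMSO pools and 8.68 in the male control DMSO pool, against 6.01 to 6.59 in the other pools, the same order as the main probe.

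Promoter sequences were taken from RefSeq (GRCm38.p6) for 8 of the 9 genes, since genes that moved together in these pools invite a look at their starts. The 250 bases before each start were searched on both strands for the HNF1 half-site GTTAAT, the HNF4 site CAAAGTCCA, the PPAR and RXR half-site AGGTCA, the GLI site GACCACCCA and the TATA box TATAAA. HNF1 factors and HNF4A are regulators of proximal tubule genes, and GLI proteins are the effectors of hedgehog signaling. The HNF1 half-site stood before *Umod* and before the upstream start of *Tmem27*, against 6.43% of all 32851 promoters. The other *Tmem27* start, with its window at chrX:164091939-164092188, held none. The TATA box stood before *Dpp4*, 227 bases before the start, against 12.4% of all promoters. The HNF4, PPAR and RXR, and GLI letters, present in 0.384%, 14% and 0.225% of all promoters, were in none of the 9 starts of these 8 genes. Shown are the *Tmem27* start with its matches, the *Umod* start and, as the gene that behaved the other way, the *Fbp1* start, each 5′ to 3′ on the strand of the gene with HNF1 half-sites in capitals. The *Tmem27* window is chrX:164089937-164090186 on the plus strand, with matches that begin 73 and 54 bases before the start, the *Umod* window is chr7:119479263-119479512 on the minus strand, with a match 202 bases before the start, and the *Fbp1* window is chr13:62888283-62888532 on the minus strand, with none. *Nphs1*, *Dpp4*, *Lrp2*, *Slc12a1* and *Kcnj1* held no HNF1 half-site either, so its absence is not particular to *Fbp1*. A match is a run of letters, not a site shown to be bound.
Tmem27: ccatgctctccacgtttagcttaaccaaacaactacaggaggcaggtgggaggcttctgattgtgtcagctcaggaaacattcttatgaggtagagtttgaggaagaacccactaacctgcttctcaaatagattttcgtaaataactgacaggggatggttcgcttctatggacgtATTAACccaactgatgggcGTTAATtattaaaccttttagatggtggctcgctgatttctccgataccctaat
Umod: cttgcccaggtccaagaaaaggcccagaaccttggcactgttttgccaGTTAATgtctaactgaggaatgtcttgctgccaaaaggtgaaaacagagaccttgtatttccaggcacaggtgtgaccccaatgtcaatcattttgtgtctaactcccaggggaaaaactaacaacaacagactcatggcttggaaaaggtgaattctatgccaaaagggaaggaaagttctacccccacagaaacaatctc
Fbp1: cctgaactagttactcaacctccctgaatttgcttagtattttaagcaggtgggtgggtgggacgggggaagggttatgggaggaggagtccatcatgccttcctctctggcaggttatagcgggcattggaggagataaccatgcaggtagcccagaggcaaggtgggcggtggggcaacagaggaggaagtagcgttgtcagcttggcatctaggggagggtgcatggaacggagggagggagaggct

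All 9 genes were well above background in both *Pparg-cKO* pools cultured with DMSO, and 8 of them were below that mark in at least 1 other pool. In control ureters cultured with DMSO, 6 genes were above background in the male pool and 2 in the female pool. With purmorphamine, 4 were above background in either control pool, 4 in the male and 5 in the female *Pparg-cKO* pool. *Podxl* was the only gene above background in all 8 pools. *Nphs1*, *Lrp2*, *Slc12a1* and *Kcnj1* entered the tests only through the *Pparg-cKO* DMSO pools, where they were high, so their differences from those pools follow in part from the filter. In pools of whole ureters, fewer cells of a type and less RNA per cell cannot be told apart.

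**Figure D1:**
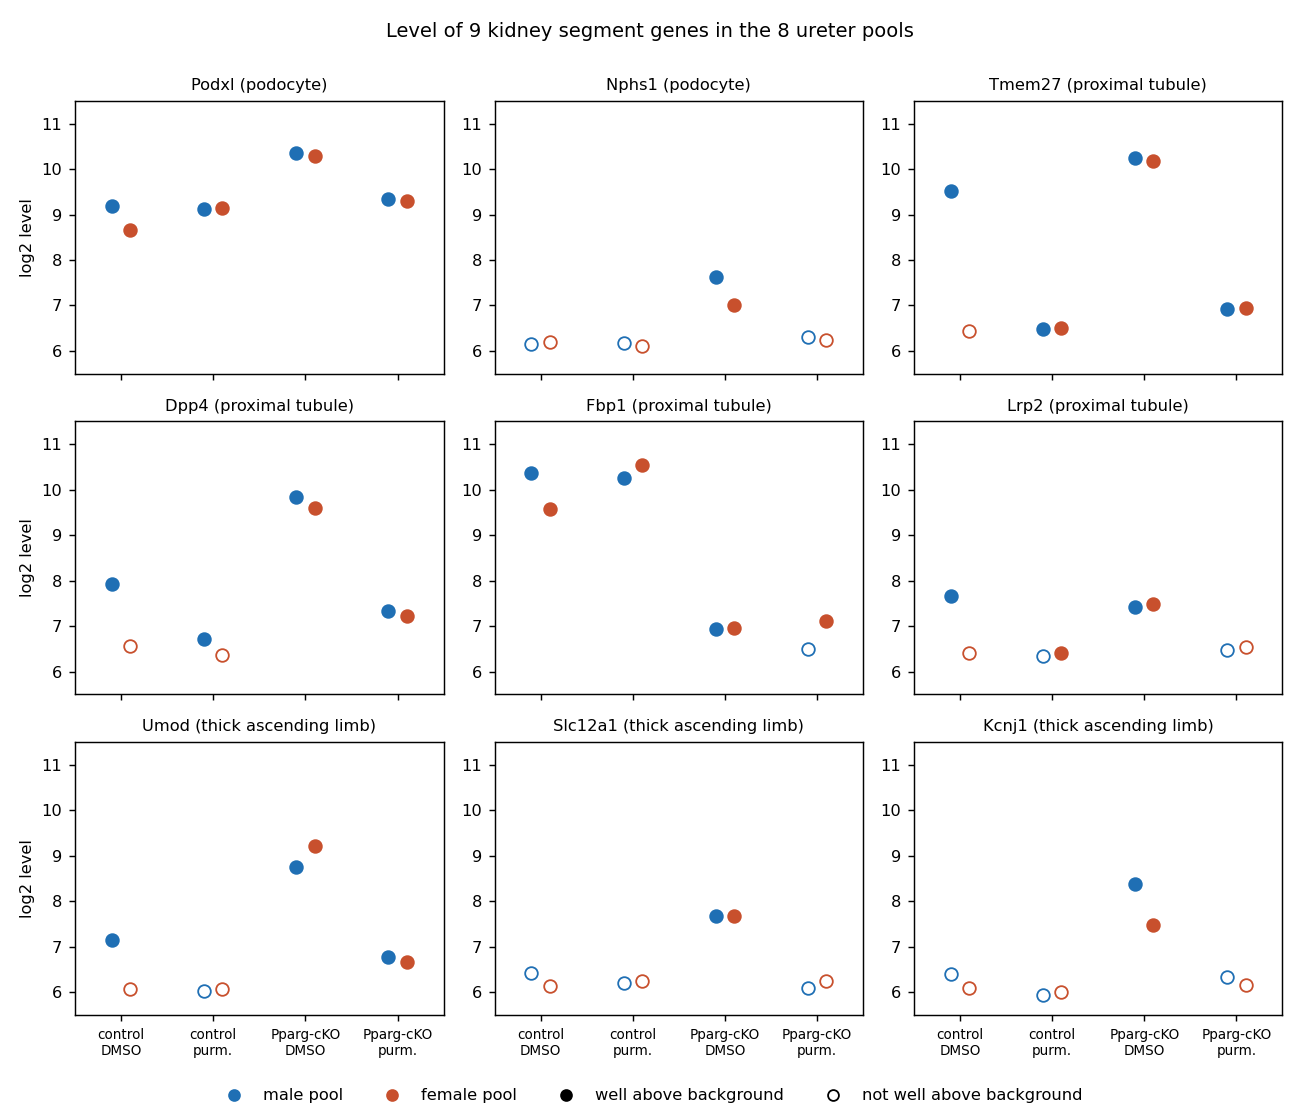
Log2 level (y axis) of the 9 kidney segment genes in each of the 8 pools, by genotype and treatment (x axis, purm. for purmorphamine). Blue points are male and orange points female pools, and open points were not well above background. All genes but *Fbp1* are high in the *Pparg-cKO* DMSO pools, and *Tmem27*, *Dpp4*, *Lrp2* and *Umod* are also raised in the male control DMSO pool.

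The DMSO pools were compared first. This comparison was used to choose the genes, so its values describe them and carry no test. *Nphs1* had log2 levels of 7.62 and 7.02 in the male and female *Pparg-cKO* pools, against 6.16 and 6.19 in the control pools, where it was not above background. *Podxl* had 10.36 and 10.30 against 9.18 and 8.66. Both podocyte genes were higher in either *Pparg-cKO* pool than in either control pool, by 1.14 for *Nphs1* and 1.41 for *Podxl* on the log2 scale. For *Nphs1* the measured signal was at least 1.85-fold higher. In each dim pool this bound used the lowest signal well above background, or the gene's own signal where that was higher (the same rule holds for each bound given here). Markers of other cell types also differed between these pools. Of 10 endothelial genes 6 were higher in both *Pparg-cKO* pools than in either control pool (median log2 difference 0.60), and of 12 urothelial genes 8 were lower in both (median -0.59), where 21% of all genes tested were higher and 21.7% lower in this way. Of 7 tested mesothelial genes 3 were higher in both and 2 lower in both (median 0.31), and among them *Msln* was 47.5-fold higher. Their part in the level of *Podxl* was not tested.

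The thick limb genes were also higher. *Umod* had log2 levels of 8.75 and 9.21 in the male and female *Pparg-cKO* pools, against 7.14 and 6.07 in the control pools. *Slc12a1* had 7.68 and 7.67 against 6.42 and 6.14, and *Kcnj1* had 8.39 and 7.47 against 6.40 and 6.10. For all 3 genes the *Pparg-cKO* and control pools did not overlap. The mean log2 difference was 2.37 for *Umod*, 1.40 for *Slc12a1* (at least 2.33-fold higher) and 1.68 for *Kcnj1* (at least 2.79-fold higher).

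The proximal tubule genes did not behave alike. *Dpp4* had log2 levels of 9.85 and 9.61 in the *Pparg-cKO* DMSO pools against 7.92 and 6.56 in the control pools, a mean difference of 2.48. *Tmem27* had 10.23 and 10.18 against 9.52 and 6.44. Its male control pool lay 0.71 below the male *Pparg-cKO* pool, and its female control pool was not above background. *Lrp2* had 7.42 and 7.49 against 7.67 and 6.40, so that the male control pool was the highest of the 4 and the groups overlapped. *Fbp1* ran the other way, with 6.94 and 6.97 in the *Pparg-cKO* pools against 10.36 and 9.56 in the control pools, a mean log2 difference of -3.01 (8.03-fold). In all, 7 of the 9 genes were higher in both *Pparg-cKO* pools than in either control pool, as were 21% of all 20231 genes tested, and 1 was lower in both.

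By the rule of the methods, the signal scaled to a 75th percentile of 1500 had to exceed 100 in the brighter pool and differ at least 1.5-fold the same way in both sexes. *Podxl*, *Tmem27*, *Dpp4* and *Umod* were higher by this rule, as were 1.33% of all genes, and *Fbp1* was lower, as were 1.5%. *Nphs1*, *Slc12a1*, *Kcnj1* and *Lrp2* fell outside it. *Kcnj1*, which passed the limit of 100 in the male pool alone, reached scaled signals of 107 (male) and 40.1 (female) in *Pparg-cKO* pools, and *Slc12a1* had 57.1 and 50.9. *Umod*, just inside, had 136 and 186. A further setting scaled the median, in place of the 75th percentile, to 1500. This raises all signals against the unchanged limit of 100, so the rule is looser. Under it 8 of the 9 genes met the rule, 7 as higher and 1 as lower, beside 2.35% and 3.2% of all genes. The sizes of the DMSO differences given above also depended on the background correction. With the scanner's processed signals the mean log2 difference was 4.43 for *Umod* and 3.53 for *Dpp4*, each above background in 1 of the 2 control pools, and -4.02 for *Fbp1*. The measured differences against control pools not above background moved as well, to 3.98 for *Nphs1*, 3.77 for *Slc12a1*, 4.23 for *Kcnj1* and, with 1 control pool above background, 1.29 for *Lrp2* (0.43 before), so that for the first 3 only the bounds are read as sizes.

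The male and female control pools cultured with DMSO stood apart in these genes. *Tmem27*, *Dpp4*, *Lrp2* and *Umod* were well above background in the male but not in the female control DMSO pool. Bounds were set against the floor of the female pool, or the gene's own signal there where that was higher. *Tmem27* was at least 8.14-fold, *Dpp4* at least 2.56-fold, *Lrp2* at least 2.25-fold and *Umod* at least 1.56-fold higher in the male pool. The other 5 genes differed by less than 1 on the log2 scale between those pools. By the measured signals, which for these 4 genes lie at background in the female pool, 4 of 9 genes were at least 2-fold higher in the male pool, against 0.964% of all genes tested, and none was at least 2-fold higher in the female pool, against 0.628%. Of the 29 tested genes of a proximal tubule list, 8 were at least 2-fold higher in the male control pool and none in the female pool. Beside *Tmem27*, *Dpp4* and *Lrp2* these included *Slc27a2*, *Mep1a*, *Pdzk1* and *Hnf4a*, which were named after their values were seen. *Slc34a1*, the phosphate transporter that defines the proximal tubule, had log2 levels of 7.39 and 6.45 in the male and female control DMSO pools, beside 6.68 and 6.72 in the *Pparg-cKO* DMSO pools. The median log2 difference of male minus female control DMSO pool was 0.36 for the proximal tubule list. It was 0.60 for endothelial genes (1 of 10 at least 2-fold higher in the male pool) and 0.31 for leukocyte genes. The medians were -0.35 for smooth muscle and mesenchyme, -0.25 for urothelial and -0.10 for mesothelial genes. The part of these cell types was not tested.

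The podocyte genes were read in the same pools, and their contrast with the proximal tubule genes was not tested. *Podxl* had 9.18 in the male and 8.66 in the female control DMSO pool, 1.43-fold higher in the male one. *Nphs1* had 6.16 and 6.19, not above background in either, so it cannot show a difference. Of the 20 tested podocyte genes none differed at least 2-fold between those pools in either direction. None of the 9 genes differed at least 2-fold between the male and female pools of the *Pparg-cKO* DMSO group, nor in either purmorphamine group. Whether a pool held kidney tissue is not recorded in the labels and was not tested.

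**Figure D2:**
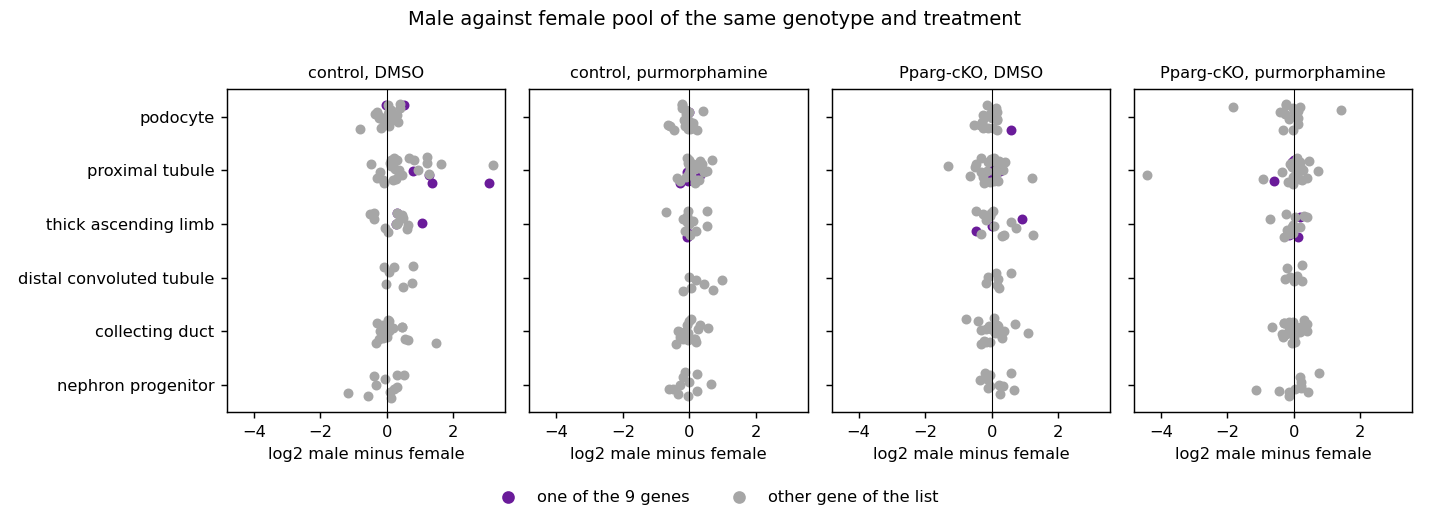
Log2 difference of the male minus the female pool (x axis) for each tested gene of 6 kidney lists (rows), in the 4 combinations of genotype and treatment. Purple points are genes among the 9, grey points other genes of the list. In the control DMSO panel 8 proximal tubule genes lie at 1 or above, with *Tmem27*, not above background in the female pool, at 3.08, and in the control purmorphamine panel no proximal tubule gene does.

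Under purmorphamine the genotypes were compared in pools other than the DMSO pools. The genes were chosen with earlier results of these data known, so a call here is not independent of their choice. Of the 9 genes, *Fbp1* was lower in *Pparg-cKO* ureters and none of the other 8 passed the test. *Fbp1* had log2 levels of 6.50 and 7.11 in the male and female *Pparg-cKO* pools, the male one not above background, against 10.27 and 10.54 in the control pools. The groups lay far apart, with a log2 difference of -3.60 ± 0.30 (SE, 2 pools per group, adjusted p = 0.00455 by limma). Over all genes tested, 1.91% were called lower and 1.23% higher. The call on *Fbp1* was lost when either control array was left out, with adjusted p = 0.0530 without the male and 0.0617 without the female one, at log2 differences of -3.74 and -3.47.

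Among the other 8 genes *Podxl* had 9.34 and 9.31 in the *Pparg-cKO* purmorphamine pools against 9.12 and 9.14 in the control pools, a difference of 0.19 ± 0.16 (adjusted p = 0.682). *Tmem27* had 6.93 and 6.94 against 6.47 and 6.50, a difference of 0.44 ± 0.84 (adjusted p = 0.887). The pools did not overlap, but the fit takes its error from all 4 groups, and the SD of *Tmem27* in the control DMSO group was 2.18. *Dpp4* had 7.32 and 7.23 against 6.71 and 6.37, a difference of 0.74 ± 0.39 (adjusted p = 0.451), and *Umod* had 6.78 and 6.66 against 6.02 and 6.07, a difference of 0.68 ± 0.33 (adjusted p = 0.399, at least 1.30-fold higher). With the scanner's processed signals these differences were 1.83 for *Dpp4* and 3.14 for *Umod*, again without a call, the latter measured against control pools that were not above background. *Nphs1*, *Slc12a1* and *Kcnj1* were not above background in any purmorphamine pool of either genotype, so no fold is given. *Lrp2* was above background in the female control purmorphamine pool alone, at 6.41.

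Purmorphamine was then compared with DMSO within each array. In *Pparg-cKO* ureters the comparison reuses the DMSO pools in which the genes were chosen for being high, and *Nphs1*, *Lrp2*, *Slc12a1* and *Kcnj1* passed the filter only through those pools, so the differences of the 9 genes are a description and no test is read from them. The purmorphamine pools lay below both DMSO pools for 8 of the 9 genes, beside 28.3% of all genes tested, and the limma fit placed 6 of the 9 past its threshold as lower and none as higher, beside 3.1% and 2.02% of all genes. The choice of genes favours such counts, and nothing is read from them.

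The thick limb genes lay at or near background after treatment. *Umod* had 8.75 with DMSO and 6.78 with purmorphamine in the male and 9.21 and 6.66 in the female *Pparg-cKO* ureters, a log2 difference of -2.25 ± 0.30 (4.77-fold). *Slc12a1* had 7.68 and 6.10 in the male and 7.67 and 6.24 in the female ureters, at least 2.34-fold lower. *Kcnj1* had 8.39 and 6.34, and 7.47 and 6.15, at least 2.78-fold lower. In each sex the treated pool was the lower one, and *Slc12a1* and *Kcnj1* were not above background after treatment.

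Both podocyte genes were also lower in the treated pools. *Podxl* had 10.36 with DMSO and 9.34 with purmorphamine in the male and 10.30 and 9.31 in the female ureters, a log2 difference of -1.01 ± 0.15 (2.01-fold). *Nphs1* had 7.62 and 6.30, and 7.02 and 6.25, at least 1.82-fold lower and no longer above background. Among the proximal tubule genes *Dpp4* had 9.85 and 7.32, and 9.61 and 7.23, a difference of -2.45 ± 0.25 (5.46-fold). *Tmem27* had 10.23 and 6.93 in the male and 10.18 and 6.94 in the female ureters, a difference of -3.28 ± 0.70 on the log2 scale (9.69-fold). *Lrp2* had 7.42 and 6.47, and 7.49 and 6.54, at least 1.94-fold lower. *Fbp1*, low in *Pparg-cKO* ureters with either treatment, differed by -0.16 ± 0.29, with ratios of opposite sign in the male and female arrays.

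These sizes depended on the background correction. With the scanner's processed signals the log2 difference was -3.55 for *Umod*, -3.09 for *Dpp4*, -4.33 for *Tmem27* and -1.06 for *Podxl*. Against treated pools not above background the measured differences were -4.55 for *Slc12a1*, -4.34 for *Kcnj1*, -3.39 for *Nphs1* and -2.23 for *Lrp2*, and only the bounds are read as sizes. The count of 6 became 4 with those signals, 1 without a filter on dim probes and 3 without the female *Pparg-cKO* array.

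The control arrays also share their DMSO pools with the comparison that chose the genes. In control ureters none of the 9 genes passed the test with purmorphamine (limma, 1 at an unadjusted p under 0.05), against 1.12% of all genes tested that were called lower and 0.405% higher. The male and female arrays differed. *Tmem27* went from 9.52 to 6.47 in the male control ureters and from 6.44 to 6.50 in the female ones. *Dpp4* went from 7.92 to 6.71 and from 6.56 to 6.37, *Lrp2* from 7.67 to 6.33 and from 6.40 to 6.41, and *Umod* from 7.14 to 6.02 and from 6.07 to 6.07. In the male array all 4 genes were thus lower with purmorphamine, and in the female array none of the 4 moved by more than 0.19. These 4 genes were named for being above background in the male and not in the female control DMSO pool. A fall from the male pool, and none from a female pool at background, follow in part from that choice, and nothing is read from them. *Podxl* went from 9.18 to 9.12 and from 8.66 to 9.14, and *Fbp1* from 10.36 to 10.27 and from 9.56 to 10.54. The test of the difference between the genotypes in their purmorphamine effect called none of the 9 genes (limma, lowest adjusted p = 0.833, 6 at an unadjusted p under 0.05) and no gene of all those tested (669 at an unadjusted p under 0.05). For the 9 genes this test too is built on the DMSO pools that chose them, and nothing is read from it.

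**Figure D3:**
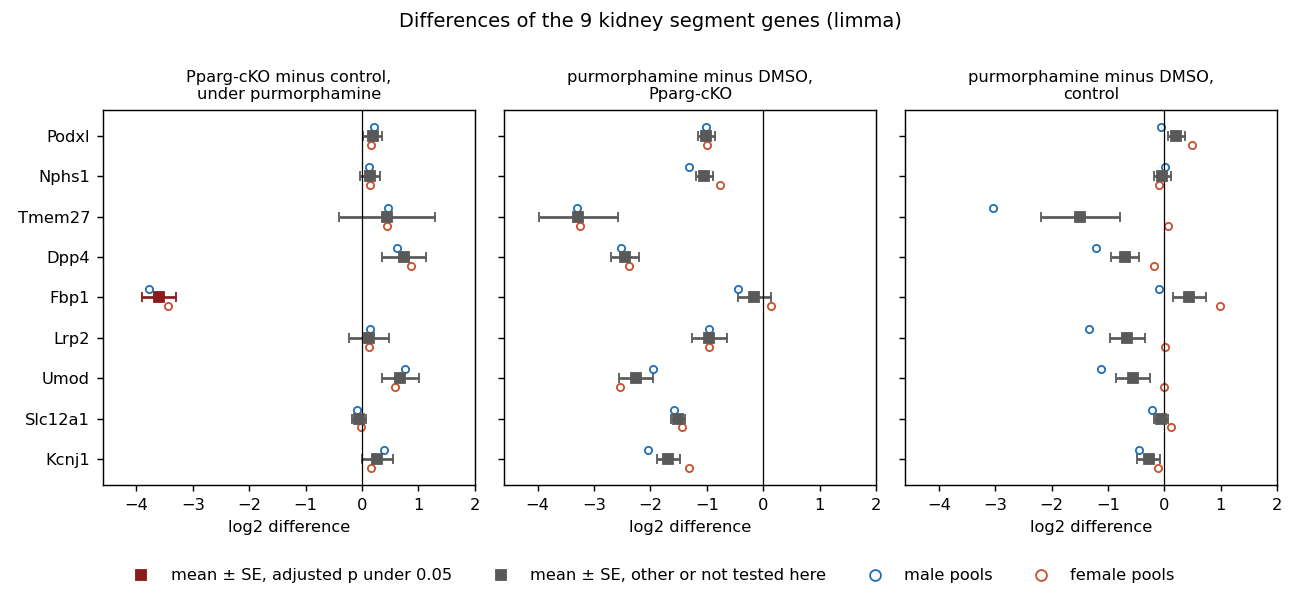
Log2 difference (x axis) of each of the 9 genes (rows) between genotypes under purmorphamine and between purmorphamine and DMSO in each genotype. Squares with bars are the limma estimate ± SE, dark red in the first panel where the adjusted p was under 0.05, and open points are the male (blue) and female (orange) pairs. The panels of purmorphamine minus DMSO are a description. *Fbp1* stands at -3.60 between the genotypes and *Tmem27* at -3.28 in *Pparg-cKO* ureters. In control ureters the male and female points of *Tmem27* lie at -3.05 and 0.06, with the female DMSO pool not above background.

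The other genes of each segment were taken from lists of known markers. For each segment the counts of purmorphamine against DMSO leave out the 9 genes. Counts between the genotypes, and those over all kidney lists together, include them unless stated. Over all genes tested, 3.1% fell and 2.02% rose with purmorphamine in *Pparg-cKO* ureters, and 1.12% fell and 0.405% rose in control ureters. Between the genotypes under purmorphamine 1.23% were higher in *Pparg-cKO* ureters and 1.91% lower. Of 21 podocyte genes 20 were tested. With purmorphamine 5 of the 18 others fell in *Pparg-cKO* ureters and 2 rose (median log2 difference -0.28, against -0.00 over all genes tested), while in control ureters none passed (median 0.20). *Wt1*, a transcription factor of podocytes and mesothelium, fell by 2.75 on the log2 scale (adjusted p = 0.0289), but had 10.16 and 10.34 in the control DMSO pools beside 10.67 and 10.95 in the *Pparg-cKO* ones. *Tdrd5*, a marker from single-cell surveys of glomeruli, was at least 2.48-fold lower but had passed the filter through the *Pparg-cKO* DMSO pools alone, the 1 gene of those that fell in the kidney lists for which this held, and *Col4a4*, a collagen chain of the glomerular basement membrane, fell by 1.03. The 2 genes that rose were *Tcf21* (0.91), a factor of podocytes and also of mesenchyme, and *Plce1* (0.79), a phospholipase, both named after their values were seen. None of the 20 podocyte genes was called between the genotypes under purmorphamine.

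Of 39 proximal tubule genes 29 were tested. Of the 25 others 2 fell with purmorphamine in *Pparg-cKO* ureters and 1 rose (median -0.36), and in control ureters 1 fell (median -0.19). *Gatm*, the first enzyme of creatine synthesis, fell in both genotypes, by 1.21 in *Pparg-cKO* (adjusted p = 0.0196) and by 1.58 in control ureters (adjusted p = 0.0223). *Slc13a3*, a dicarboxylate transporter named after its values were seen, fell by 1.27 in *Pparg-cKO* ureters, where it was above background in 1 of the 2 treated pools, and *Enpep*, a surface peptidase also found on pericytes, rose by 1.37. Between the genotypes under purmorphamine *Fbp1* was lower and *Pdzk1*, a scaffold of brush border transporters, was higher, with 11.55 and 10.81 against 6.92 and 6.90 (log2 difference 4.27 ± 0.40, adjusted p = 0.00674). In *Pparg-cKO* ureters with DMSO *Pdzk1* had 11.73 and 11.39, and its difference with purmorphamine was -0.38 ± 0.29 (adjusted p = 0.551). The defining markers *Cubn* and *Slc34a1* passed no test. *Cubn* (cubilin, the partner of megalin) lay between 7.18 and 7.66 in all 8 pools, and *Slc34a1* was above background in 3 of the 4 DMSO pools and no purmorphamine pool. *Slc5a12*, *Slc22a8*, *Slc22a12* and *Slc6a19*, transporters of the mature tubule, were not well above background in any pool.

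Of 18 thick limb genes 16 were tested. Of the 13 others 4 fell and none rose with purmorphamine in *Pparg-cKO* ureters (median -0.38), and 2 fell and none rose in control ureters (median -0.03). *Kcnj16*, a subunit of basolateral potassium channels, had 9.85 and 10.32 in the *Pparg-cKO* DMSO pools, 7.55 and 7.74 after purmorphamine, 8.30 and 7.70 in the control DMSO pools and 6.53 and 6.59 after purmorphamine. It fell in both genotypes, by 2.44 (adjusted p = 0.0139) and by 1.44 (adjusted p = 0.0458). *Casr*, the calcium-sensing receptor, also fell in both, by 1.20 in *Pparg-cKO* (adjusted p = 0.0164) and at least 1.95-fold in control ureters (adjusted p = 0.0341). *Irx1* and *Irx2*, homeobox genes of the distal nephron, fell in *Pparg-cKO* ureters by 1.06 and 0.96 and are named after their values were seen. *Cldn16*, a tight junction protein of the thick limb, was not well above background in any pool.

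Of 7 tested genes of the distal convoluted tubule 2 fell with purmorphamine in *Pparg-cKO* ureters and none in control ureters: *Fxyd2*, a modulator of the sodium pump, by 1.43 and *Trpm6*, a magnesium channel above background in 1 of the 2 treated pools, by 0.93. *Slc12a3*, the cotransporter that defines this segment, was not well above background in any pool. Of 19 collecting duct genes 1 fell with purmorphamine in *Pparg-cKO* ureters, *Rhcg*, an ammonia channel, by 1.68, and none in control ureters. Under purmorphamine 5 of the 19 collecting duct genes were higher in *Pparg-cKO* than in control ureters and 1 was lower, beside 1.23% and 1.91% of all genes tested. *Foxi1*, the transcription factor of intercalated cells, had 10.59 and 10.82 against 6.57 and 6.58 (log2 difference 4.13 ± 0.13, adjusted p = 0.000230), *Fxyd4* was higher by 3.23, *Elf5* by 1.18 and *Scnn1a* by 0.85. *Atp6v1b1*, an intercalated cell pump subunit, was at least 1.52-fold higher. *Scnn1a* and *Atp6v1b1* were named after their values were seen. *Aqp3*, a water channel shared with urothelium, was lower by 1.52. *Aqp2*, the water channel of principal cells, lay between 7.05 and 7.25 in all 8 pools.

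Of 11 tested genes of nephron progenitors 3 were higher in *Pparg-cKO* ureters under purmorphamine and none was lower, beside 1.23% and 1.91% of all genes tested. *Six2*, the factor that keeps nephron progenitors undifferentiated, had 12.80 and 12.60 against 9.98 and 9.34 (log2 difference 3.04 ± 0.21, adjusted p = 0.00240). *Six2* differed by -0.06 ± 0.14 with purmorphamine in *Pparg-cKO* ureters and fell by 1.17 in control ureters (adjusted p = 0.0414). *Pax8* was higher by 2.13 and *Wnt4* by 0.83 under purmorphamine, and *Pax8* fell by 0.74 with purmorphamine in *Pparg-cKO* ureters. *Pax2* was not well above background in any pool. Over the 6 kidney lists together (120 genes), 21 genes passed as lower and 3 as higher with purmorphamine in *Pparg-cKO* ureters, with 10 and 1 when the female *Pparg-cKO* array was left out and 9 and 1 without the filter on dim probes. These counts include genes among the 9, which were chosen on the DMSO pools compared here, so nothing is read from them. Without the 9 genes, 15 of 93 tested genes passed as lower and 3 as higher, beside 3.1% and 2.02% of all genes tested. The alternatives were not counted without the 9 genes. Between the genotypes under purmorphamine 9 list genes were higher and 2, *Fbp1* among them, lower, with 4 and 1 under a replicate block. Fewer were higher when any array was left out. Without the 9 genes, 9 of 93 tested genes were higher and 1 lower, beside 1.23% and 1.91% of all genes tested. In control ureters 4 list genes, none of them among the 9, fell with purmorphamine and none rose, beside 1.12% and 0.405% of all genes tested. These calls were lost when either control array was left out or without the filter. Median centring gave 3 lower and 2 higher, and leaving out either *Pparg-cKO* array 6 lower and 2 higher.

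**Figure D4:**
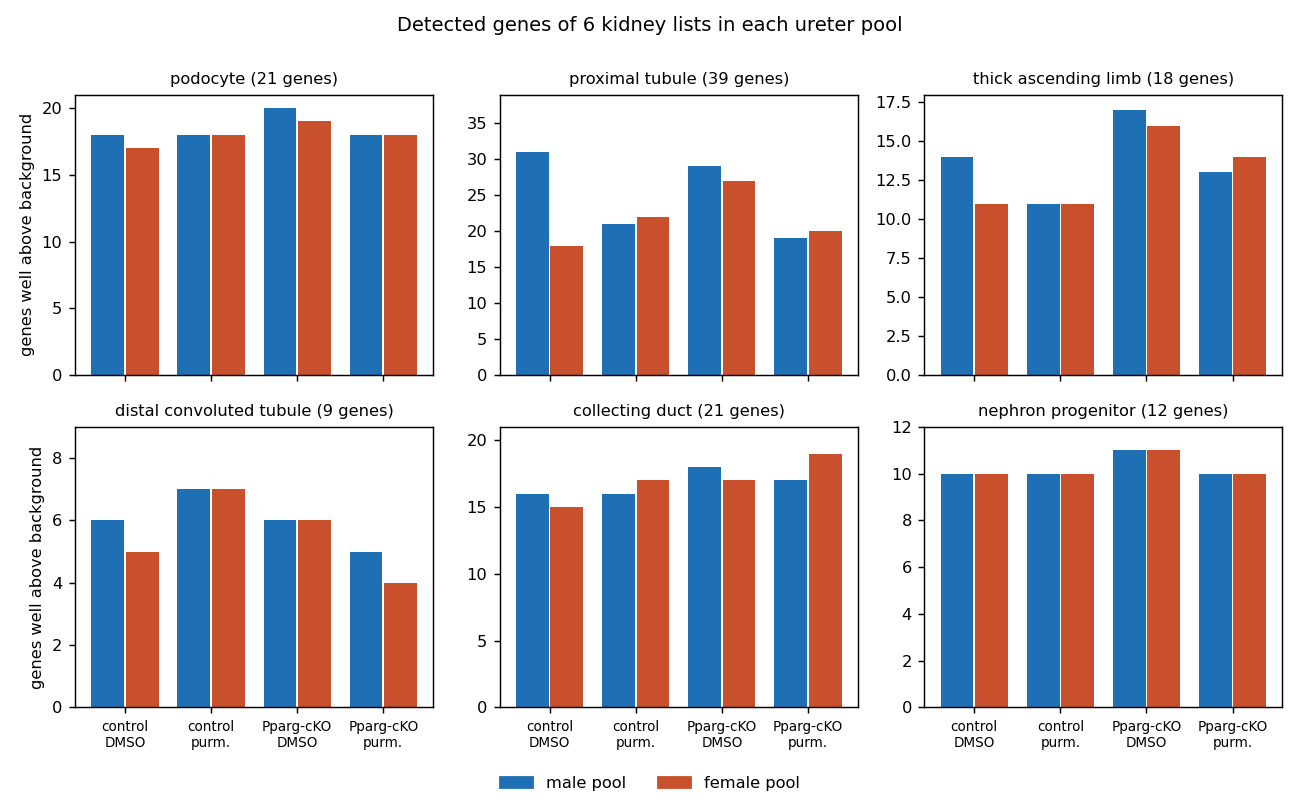
Number of genes well above background (y axis) in each of the 8 pools for 6 lists of kidney genes, with the top of each axis at the number of genes on the array. Blue bars are male and orange bars female pools. For the proximal tubule 31 and 18 genes are above background in the male and female control DMSO pools, 29 and 27 in the *Pparg-cKO* DMSO pools, and 19 to 22 in the purmorphamine pools.

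Relatives and partners of the 9 genes were measured in a list of 34, of which 30 were tested. The sialomucins related to podocalyxin did not fall with it. *Podxl2* rose by 0.74 with purmorphamine in *Pparg-cKO* ureters, and *Cd34* differed by 0.42 without a call. The intracellular partners *Slc9a3r1*, *Slc9a3r2* and *Ezr*, and the slit diaphragm partners *Cd2ap* and *Kirrel*, passed no test. The peptidases *Fap*, *Dpp7*, *Dpp8* and *Dpp9*, relatives of *Dpp4*, the angiotensin-converting enzyme *Ace*, and the megalin relatives and adaptors *Lrp1*, *Amn*, *Dab2* and *Lrpap1* also passed none. *Lrp1b*, *Gp2* and *Umodl1* were not well above background in any pool.

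Of the relatives of *Fbp1* in gluconeogenesis *Fbp2* and *Pcx* were lower in *Pparg-cKO* ureters under purmorphamine, and *Pck1* and *Pck2* passed no test. *Fbp2*, the muscle paralog, had 7.36 and 8.17 in the *Pparg-cKO* purmorphamine pools against 9.86 and 10.42 in the control pools (log2 difference -2.37 ± 0.30, adjusted p = 0.0144). *Pcx*, pyruvate carboxylase, was lower by 2.54 (adjusted p = 0.0463). *Pck1*, which makes phosphoenolpyruvate and is also a fat cell gene, had 6.94 and 11.38 against 12.87 and 12.70, a spread too wide for a call (-3.62 ± 1.22, adjusted p = 0.209), and its mitochondrial form *Pck2* differed by 0.18 without a call. *Hpn* (hepsin), the protease that releases uromodulin, was higher by 1.38 in *Pparg-cKO* ureters under purmorphamine (adjusted p = 0.0190) and fell by 0.73 with purmorphamine there. The ion transport partners *Slc12a2*, *Stk39*, *Oxsr1*, *Kcnj10* and *Kcnj15* passed no test, with *Slc12a2*, the ubiquitous relative of *Slc12a1*, at -0.90 ± 0.20 with purmorphamine in *Pparg-cKO* ureters (adjusted p = 0.0748).

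Markers of the other cell types of the ureter moved with treatment too, and their part in the differences above was not tested. All 12 urothelial genes were above background in every pool, and 6 rose and none fell with purmorphamine in *Pparg-cKO* ureters (2 and none in control). Their summed scaled signal, in which the brightest probes weigh most, was 131461 to 172843 in the DMSO pools and 164468 to 239592 in the purmorphamine pools, with *Krt5* or *Upk3a* as the brightest probe. Of 10 genes of smooth muscle and mesenchyme 1 rose and none fell in *Pparg-cKO* ureters, 0 passed in control ureters, and the medians were 0.79 and 0.65. Their sum was 118824 to 138075 with DMSO and 186586 to 217821 with purmorphamine, with *Acta2* as the brightest probe. Of 10 endothelial genes 2 rose in *Pparg-cKO* and 1 in control ureters, with sums of 6416 to 12842 and 13154 to 20157, with *Egfl7* or *Cdh5* as the brightest. Of 9 tested leukocyte genes 1 fell in *Pparg-cKO* ureters and none in control, with sums of 63520 to 87366 and 43141 to 62021, with *Lyz2* as the brightest. Of 7 tested mesothelial genes 3 fell and 1 rose in *Pparg-cKO* ureters and none passed in control. These were *Wt1*, *Bnc1* and *Cldn15*, and *Upk3b*, which is also urothelial. The sums of the list were 35803 to 37697 and 27777 to 34318. *Krt19* made up most of each sum, with 33424 of 37357 in the male control DMSO pool, so the sums mainly follow that probe. Between the genotypes under purmorphamine 1 of the 7 mesothelial genes was called higher in *Pparg-cKO* ureters and 1 lower (median -0.30). Of the 7, 4 were lower in both *Pparg-cKO* pools than in either control pool and 1 was higher in both. Among them *Msln* was higher by 5.90.

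**Figure D5:**
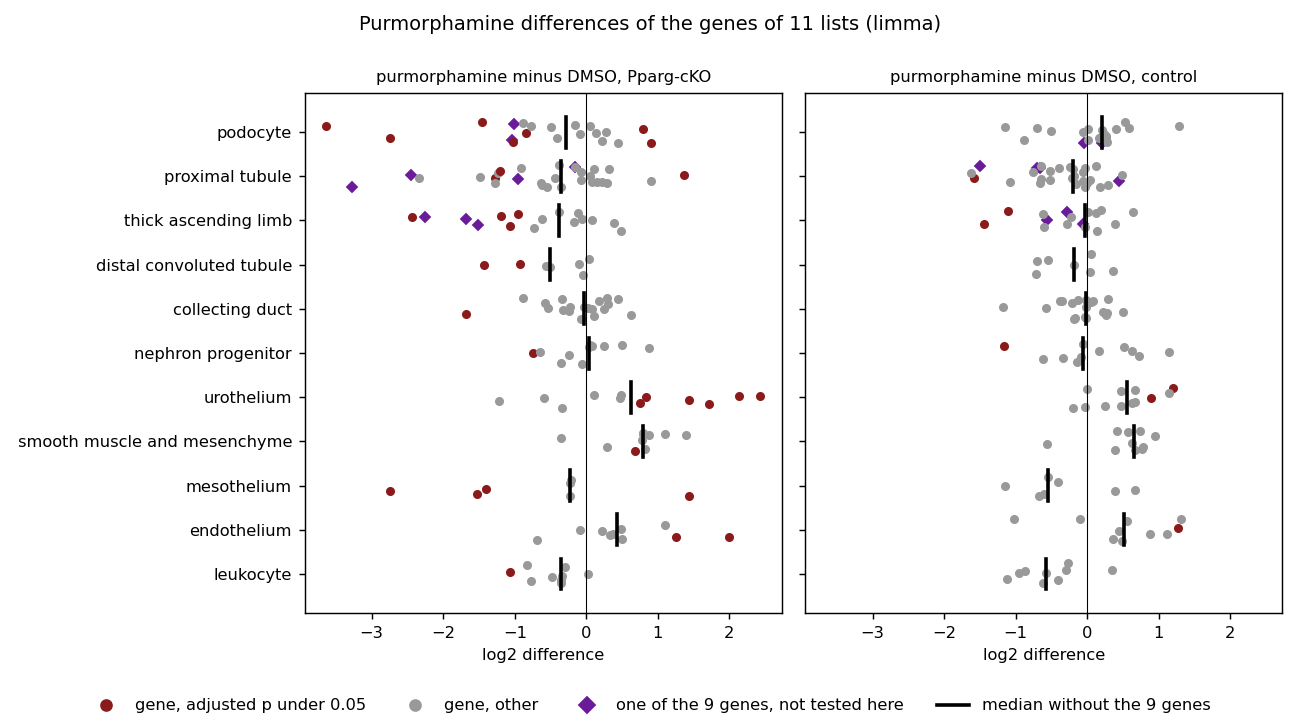
Log2 difference between purmorphamine and DMSO (x axis) for each tested gene of 6 kidney lists and 5 lists of other cell types (rows) in *Pparg-cKO* and control ureters. Dark red points passed an adjusted p of 0.05, purple diamonds are the 9 genes, and black bars are list medians without them. In *Pparg-cKO* ureters the median was -0.38 for the thick limb, -0.28 for the podocyte and 0.79 for the smooth muscle and mesenchyme list.

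Genes whose level followed each of the 9 most closely over the 8 pools are given as a description. The 8 pools share arrays, dyes and sexes, and any gene high in the *Pparg-cKO* DMSO pools correlates with the others. *Tmem27* was followed by *Slc27a2* (Pearson's r = 0.997), a fatty acid transporter of the proximal tubule list, and by *Cyp4a31* and *Cyp4a10* (r = 0.993 for both), fatty acid hydroxylases whose close relatives can share a probe. *Lrp2* was followed by *Sult1d1* (0.991), *Fndc7* (0.988) and *Clec18a* (0.985). *Dpp4* and *Umod* were both followed by *Vil1* (0.989 and 0.996), the actin bundler of brush borders, and by *Defa-rs10* (0.989 for both), and *Umod* also by *Ggt1* (0.991).

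*Nphs1* and *Kcnj1*, from different segments, were among the closest to each other (r = 0.988). *Nphs1* was also followed by *Egfbp2* (0.991) and *Klk1b5* (0.986), and *Kcnj1* by *Slc13a1* (0.985), a renal sulfate transporter, and *Egfbp2* (0.982). *Egfbp2* and *Klk1b5* belong to the tandem kallikrein family, whose members resemble each other closely. *Slc12a1* was followed by *Try5* (0.985), *Defb28* (0.984) and *Try4* (0.981), and *Podxl* by *Btbd17* (0.990), *Akr1c19* (0.989) and *Foxa3* (0.988). *Fbp1*, which correlated below 0 with each of the other 8, was followed by *Mocs1* (0.995), *Ssh2* (0.995) and *Dusp9* (0.994).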

How the data were processed

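RNA from 8 pools of cultured ureters was hybridized to 4 Agilent arrays with 2 colors. The deposited intensity columns hold the mean and background signal of each spot and a processed signal that the scanner software had background-subtracted and dye-normalized. The labels name Agilent Feature Extraction 10.7.3.1, and the file headers name another version. The deposited log10 ratio of red over green was only set against the red and green signals, to see that it ran the same way. A further table of the authors' signed fold changes was not used.

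Mean signals were corrected with normexp (offset 50) and normalized by loess in limma 3.58.1 (R 4.3.3), control and outlier spots were dropped and the 4 spots of a probe averaged. To be tested, a probe had to be well above background throughout some group, in its male and its female pool (27066 of 39429 probes and 20231 genes stayed), and the brightest tested probe stood for a gene. Purmorphamine effects were fitted on the ratios within arrays. Genotypes were compared after Aquantile normalization with a separate-channel fit (intraspot correlation 0.0637, reused when an array was left out). Adjusted p-values follow Benjamini-Hochberg over all genes tested, with a threshold of 0.05. All tests are two-sided. They measure the spread between pools, and whether these came from separate cultures is not given in the sources used here. The number of arrays limits the precision.

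Named genes are the 9 genes, up to 5 called genes per kidney list by size of change, a few defining markers, the relatives and the 3 most correlated genes. The 9 genes and all lists were chosen with earlier results of these data known. A few genes that this rule or the lists name are not reported here, though they count in the lists. Fits were tested on simulated data. Alternatives changed the background correction, normalization, filter, choice of probe, replicate block and arrays.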

Additional observations from a re-analysis of the deposited data

How the results depend on the processing

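Of 378 values of single genes under the alternatives 140 left the log2 value as it was, without the filter, under the replicate block, with the mean of all probes or with an array of the other genotype left out, and say nothing on its stability (5 of them lost the threshold and 4 gained it). Of the other 238, 204 kept direction and side of the threshold or, where no test was read, moved by less than the spread between replicates, 13 moved in size, 9 lost the threshold, 1 gained it and 11 changed sign. With 1 gene called between the genotypes under purmorphamine, leaving out an array gave 0 to 1, and over all genes 17 to 344 in place of 634. The replicate block gave 155 and 4 higher and 1 lower kidney list genes in place of 9 and 2, and left the counts of the 9 genes at 1, 6, 0 and 0. Equal replicate numbers share sex and dye orientation and, within a genotype, an array. Deviations of equal numbers correlated at 0.47 between the purmorphamine groups and 0.35 within *Pparg-cKO*. They correlated at 0.0821 within control and -0.149 between the DMSO groups. Beyond the shared array the main fits did not take the numbers as pairs. The 0.47 belongs to the groups of the genotype test, which lie on different arrays, so equal numbers there were not independent. For that test the replicate block, with 155 genes in place of 634, is the fit that allows for it. With purmorphamine in *Pparg-cKO* ureters, 6 of the 9 genes became 4 with processed signals, 1 without the filter, where more genes are tested, and 3 to 8 when an array was left out. Over all genes 1037 became 601 with processed signals, 368 without the filter and 172 to 1145 when an array was left out. In control ureters 308 genes became 80, 13 and 0 to 682 under the same alternatives. Median centring changed the split of higher and lower calls from 248 and 386 to 180 and 422 between the genotypes, and from 82 and 226 to 262 and 160 in control ureters, and scaling to the 75th percentile gave 319 and 344 between the genotypes. By the rule of the methods 5 genes became 8 with median scaling. Some log2 values changed sign. *Slc12a1* between the genotypes under purmorphamine, at -0.06, was 0.014 with median centring and 0.11 with scaling to the 75th percentile, and ranged from -0.126 to 0.0146 when an array was left out. In the same way *Lrp2* between the genotypes under DMSO ranged from -0.21 to 1.06, and *Fbp1* with purmorphamine in *Pparg-cKO* ureters from -0.449 to 0.137. In control ureters with purmorphamine the range was -0.0554 to 0.479 for *Podxl*, -0.0914 to 0.0149 for *Nphs1*, -3.05 to 0.0576 for *Tmem27*, -0.0936 to 0.976 for *Fbp1*, -1.33 to 0.0143 for *Lrp2* and -0.224 to 0.11 for *Slc12a1*. The cause was not tested. Dim signal limits *Nphs1*, *Slc12a1* and *Kcnj1*, which were measured above background in 2 of 8 pools.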
